A study of Mus musculus with 16 samples.

Results

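The response of the pancreas to cerulein was examined in mice homozygous for the Adam17ex allele, by comparing 4 Adam17ex libraries after cerulein with 4 Adam17ex libraries after phosphate-buffered saline (PBS). These 8 libraries were chosen by genotype alone, out of 16 in the series, and every gene that passed the count filter was compared, 8236 of 24019. Per the labels, the animals were littermates on a C57BL/6J background aged 6 to 8 weeks, and Adam17ex is a hypomorphic allele, so all 8 animals of the comparison, PBS controls included, carried it. Treated mice received 7 intraperitoneal injections of cerulein at 50 µg per kg, spaced 1 h apart. Control mice received 50 µl of PBS on the same schedule, and all were culled 1 h after the last injection. Each group held 2 males and 2 females. Adam17ex is a germline allele and is not restricted to acinar cells. The other 8 libraries, 4 wild type (WT) with each treatment, entered the model that estimates the spread and are used below for levels of Adam17 and of clock genes and for the test of where the Adam17ex response differed.

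Cerulein is a peptide analogue of cholecystokinin. It binds the cholecystokinin A receptor on acinar cells, the enzyme-secreting cells of the exocrine pancreas, and repeated high doses raise cytosolic calcium in a sustained manner, activate trypsinogen inside the cell and cause a self-limiting pancreatitis. ADAM17 is a membrane protease that releases ligands of the epidermal growth factor (EGF) receptor, tumour necrosis factor and the soluble interleukin-6 receptor from the cell surface, and it is carried to the surface by the iRhom proteins. The early acinar response is known to include immediate early genes, stress signalling from the endoplasmic reticulum (ER), loss of acinar identity factors and gain of duct-type keratins.

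Adam17 itself was counted at 2.60, 2.58, 6.03 and 5.05 CPM (UMI counts relative to library size, after TMM scaling) in PBS replicates 1 to 4 and at 3.16, 3.55, 2.40 and 4.09 CPM in the cerulein replicates. The cerulein difference was -0.35 ± 0.55 (log2 fold change ± SE, edgeR quasi-likelihood test, adjusted p = 0.671). WT libraries held 10.3 ± 3.78 CPM with PBS and 14.3 ± 3.85 with cerulein (mean ± SD, n = 4). The 8 Adam17ex values lay below 7 of the 8 WT values, and 1 WT PBS library, at 5.25 CPM, fell among them. Because libraries were primed at the poly(A) tail, the count reports the 3' end of the transcript and not the changed part of the allele.

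Depth was 455547 to 492878 UMIs (unique molecular identifiers, 1 per captured molecule) in PBS replicates 1 to 3, 1009634 in PBS replicate 4 and 865236 to 1476159 in the cerulein libraries. The 3 shallow libraries also held the highest share of the ribosomal RNA gene CT010467.1, 7.84% to 9.02% against 2.55% to 5.04% in the other 5. In the shallowest library, PBS replicate 3, a single UMI equals 2.20 CPM before TMM scaling. After scaling, a single UMI of Adam17 in PBS replicate 1 equalled 2.60 CPM. Levels of a few CPM thus rest on a handful of molecules. A 4-digit code in the sample labels, whose meaning is not given, was over 2000 in 3 PBS libraries and 1 cerulein library. In WT it was over 2000 in all 4 PBS libraries and in 0 of the 4 cerulein libraries, so there it cannot be told apart from treatment. PBS replicate 3 stood apart from the other PBS libraries by markers of macrophages, B cells, fibroblasts, erythroid cells and T and NK cells. It was also the highest in adipocyte markers, at a summed 1851 CPM, with PBS replicate 4 at 1224 CPM. Summed levels of marker lists, here and below, are CPM without TMM scaling, unlike the CPM of single genes. The part of PBS replicate 3 is given below where a list count described here changed by over 1.5-fold without it, and for some single genes. Counts without other single libraries are given under the same limit. All listed markers of acinar cells had counts in all 8 libraries, but at unlike levels. Cpa1 lay between 14854 and 26220 CPM. Before TMM scaling, the transcription factors Bhlha15, Ptf1a and Rbpjl lay at 28.5 to 241, 42.6 to 200 and 123 to 686 CPM. Prss1 lay at 97.4 to 1230 CPM on that scale. The 2 lists of digestive enzymes took 42.9% ± 4.71 of UMIs with PBS and 42.0% ± 1.77 with cerulein (SD, n = 4; exact two-sided permutation p = 0.857, adjusted over 4 library shares 0.857; the smallest possible is 0.0286). PBS replicates 1 to 4 held 45.63%, 45.5%, 35.84% and 44.51%, and the cerulein replicates 40.73%, 44.49%, 42.15% and 40.74%. Apart from PBS replicate 3, every PBS library thus lay above every cerulein library, PBS replicate 4 by a small margin. As the tissue was processed whole, fewer cells of a type and less RNA per cell cannot be told apart.

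Of the 8236 genes, 2493 (30.3%) were called at an adjusted p under 0.05, with 1162 (14.1%) higher and 1331 (16.2%) lower after cerulein. The median log2 fold change over all tested genes was -0.03. In 1134 genes (13.8%) all 4 cerulein libraries lay above all 4 PBS libraries, and in 984 (11.9%) all lay below. When the 3 shallow PBS libraries were left out, so that 1 PBS library stood for the group with the spread of the other groups, 666 higher and 694 lower genes were called, and 1132 of these 1360 were also called with all libraries. With the range of the label code as a term in a fit of the 8 libraries alone, 697 higher and 761 lower genes were called among 6648 tested. That fit called 6 of 55 cytosolic ribosomal proteins and 5 of 20 aminoacyl-tRNA synthetases higher and 3 of 11 mitochondrially encoded genes, 1 of 50 respiratory chain genes, 1 of 26 autophagy genes and 0 of 10 fatty acid oxidation genes lower. It called 6 of 13 islet, 0 of 10 macrophage, 0 of 6 B cell, 1 of 5 adipocyte and 1 of 12 fibroblast markers lower. In some lists it made more lower calls than the main fit. It called 8 of 26 ER chaperones lower and 2 higher, and 8 of 20 ER-associated degradation genes lower and 1 higher. Of 10 metallothionein and zinc transporter genes 2 were lower and 2 higher, and of 4 EGF family genes 1 was lower and 2 higher. Counts for gene groups below are set against the 14.1% and 16.2% of all genes. The count without the 3 shallow libraries follows, where slightly different numbers of members were tested. That count comes from a fit of 9915 genes with 1 Adam17ex PBS library, in which fewer genes were called. The 14.1% and 16.2% therefore do not apply to it or to the label code counts above.

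**Figure D1:**
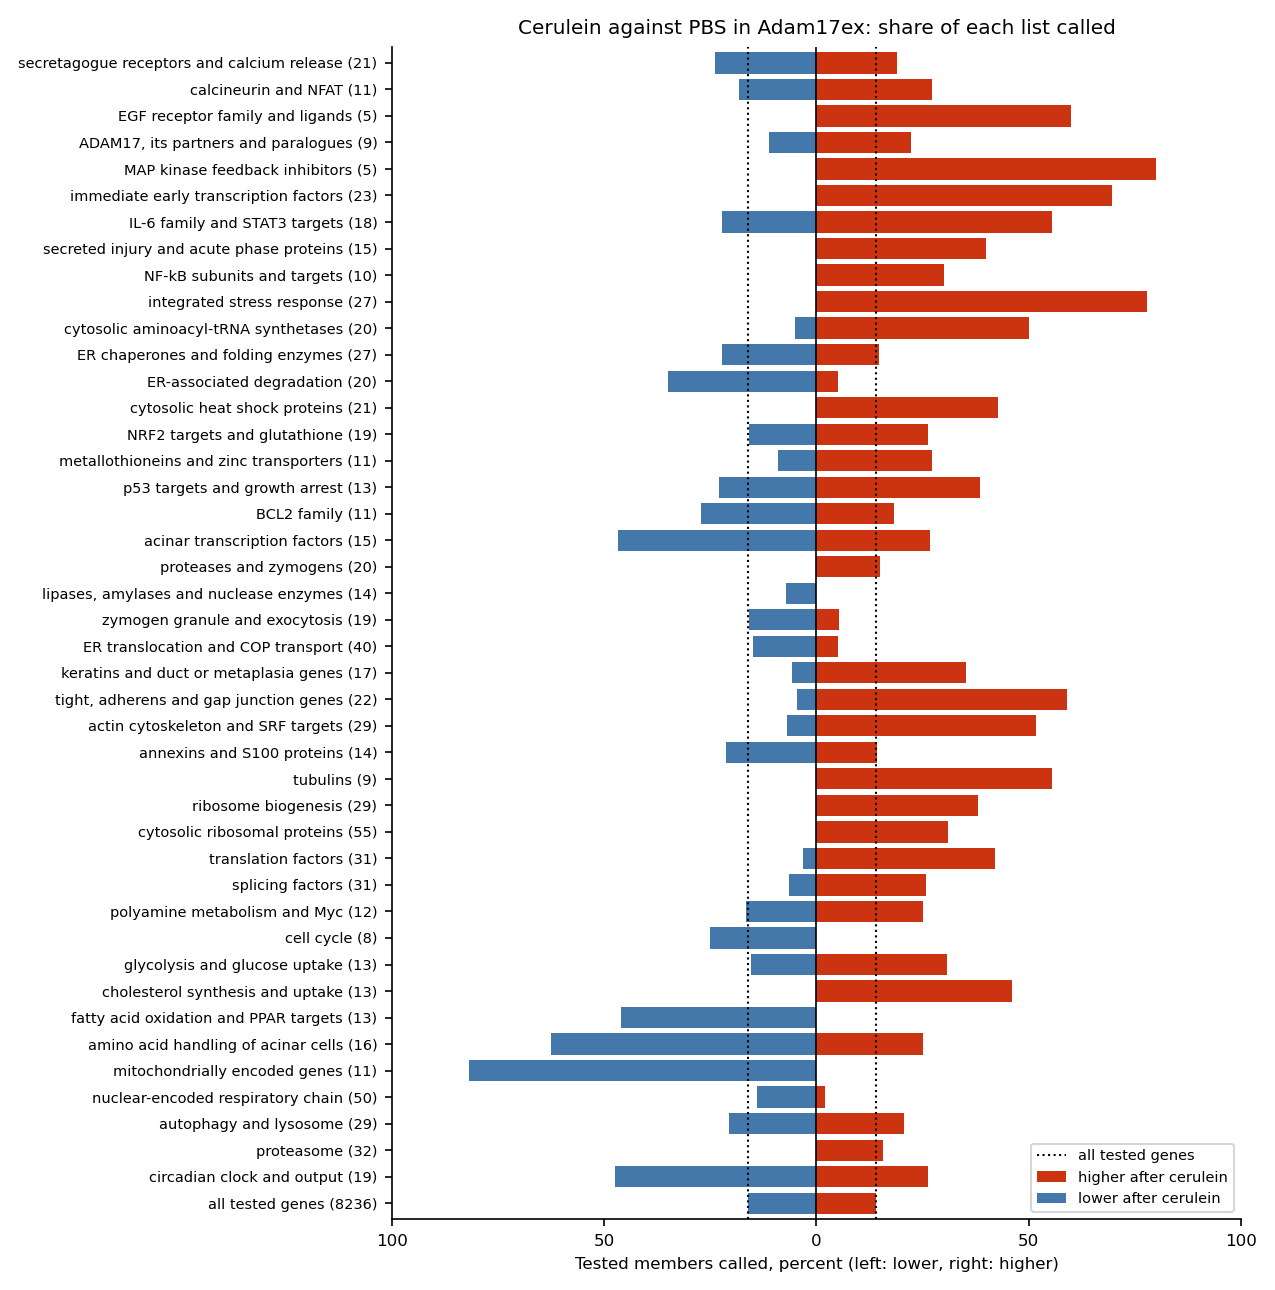
Share of the tested members that was called higher (red, to the right) or lower (blue, to the left) after cerulein in Adam17ex, in percent, for each gene list with at least 5 tested members other than cell type markers, with the number of tested members in parentheses and the shares over all 8236 tested genes as dotted lines (14.1% and 16.2%). The integrated stress response, the MAP kinase feedback inhibitors and the immediate early genes had the largest shares called higher among these lists, and the mitochondrially encoded genes the largest share called lower.

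The calcium arm held the gene with the smallest p of the whole comparison. Rcan1, which encodes an inhibitor of the phosphatase calcineurin and is itself a target of NFAT, the factor that calcineurin activates, was at 18.2, 15.5, 12.1 and 16.2 CPM with PBS and at 711, 691, 654 and 856 CPM with cerulein. The groups were far apart and the spread within each was small, and the log2 fold change was 5.55 ± 0.23 (adjusted p = 7.21e-14). RefSeq lists a pair of Rcan1 promoters on the minus strand (GRCm38.p6), and the downstream one is shown because its upstream 250 bases hold sites of the calcium-responsive kind. It spans chr16:92400079-92400328, and capitals mark a cyclic AMP response element (CRE, TGACGTCA), an AP-1 site (TGANTCA) and 3 copies of the NFAT core (GGAAA), all searched on both strands.

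Rcan1 downstream promoter: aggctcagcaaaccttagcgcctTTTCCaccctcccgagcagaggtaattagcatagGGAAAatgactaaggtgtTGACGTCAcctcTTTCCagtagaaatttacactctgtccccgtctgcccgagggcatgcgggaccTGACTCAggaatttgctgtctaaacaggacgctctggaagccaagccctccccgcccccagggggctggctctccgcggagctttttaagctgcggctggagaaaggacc

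A CRE was found in 1.79% of the 32851 RefSeq promoter windows of mouse (250 bases before to 50 after a start), and an AP-1 site in 7.81%. At least 3 NFAT cores in the upstream 250 bases occurred in 6.39% of windows, and the upstream Rcan1 promoter held 0 of the 3 motifs. The NFAT core was searched after the Rcan1 values were seen. The 3' counts do not tell which promoter was used.

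Of 11 tested members of the calcineurin and NFAT list, 3 rose and 2 fell (2 and 0 without the 3 shallow libraries), and 1 fell without any 1 of the 4 PBS libraries or of cerulein replicates 1, 2 and 4. Rcan3 rose from 14.3 ± 2.72 to 28.2 ± 5.98 CPM and Rcan2 fell from 31.9 ± 4.46 to 14.9 ± 2.21 CPM, so the 3 paralogues did not move together. Both of these smaller changes missed the threshold without the 3 shallow libraries (adjusted p = 0.0662 and 0.0891). Among 21 secretagogue receptor and calcium release genes, 4 rose and 5 fell (1 and 3 of 22), and 3 fell without PBS replicate 4. Itpr2, an inositol trisphosphate receptor of acinar cells, which releases calcium from the ER, was at 114, 77.5, 70.3 and 78.8 CPM with PBS and at 19.0, 18.7, 15.6 and 12.9 CPM with cerulein, a log2 fold change of -2.35 ± 0.24. Cckar, the receptor that cerulein binds, was at 148, 235, 179 and 297 CPM with PBS and 49.6, 155, 112 and 142 CPM with cerulein, and the groups overlapped, since 1 cerulein library lay above the lowest PBS library. Its log2 fold change of -0.89 ± 0.26 (adjusted p = 0.0123) was not called without PBS replicate 4 (-0.64, adjusted p = 0.0894) or without cerulein replicate 1 (-0.51, adjusted p = 0.0733). In all, the Cckar call was lost in 3 of 22 alternatives, over which the log2 fold change ran from -1.50 to -0.51. Genes of transcellular calcium transport rose: Trpv6, an epithelial calcium channel, by 2.86 ± 0.32, and S100g, the cytosolic calcium buffer calbindin-D9k, by 4.65 ± 0.46 on the log2 scale. S100g was at 7.80, 10.3, 8.04 and 4.04 CPM with PBS and 96.0, 140.4, 198 and 238 CPM with cerulein.

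**Figure D2:**
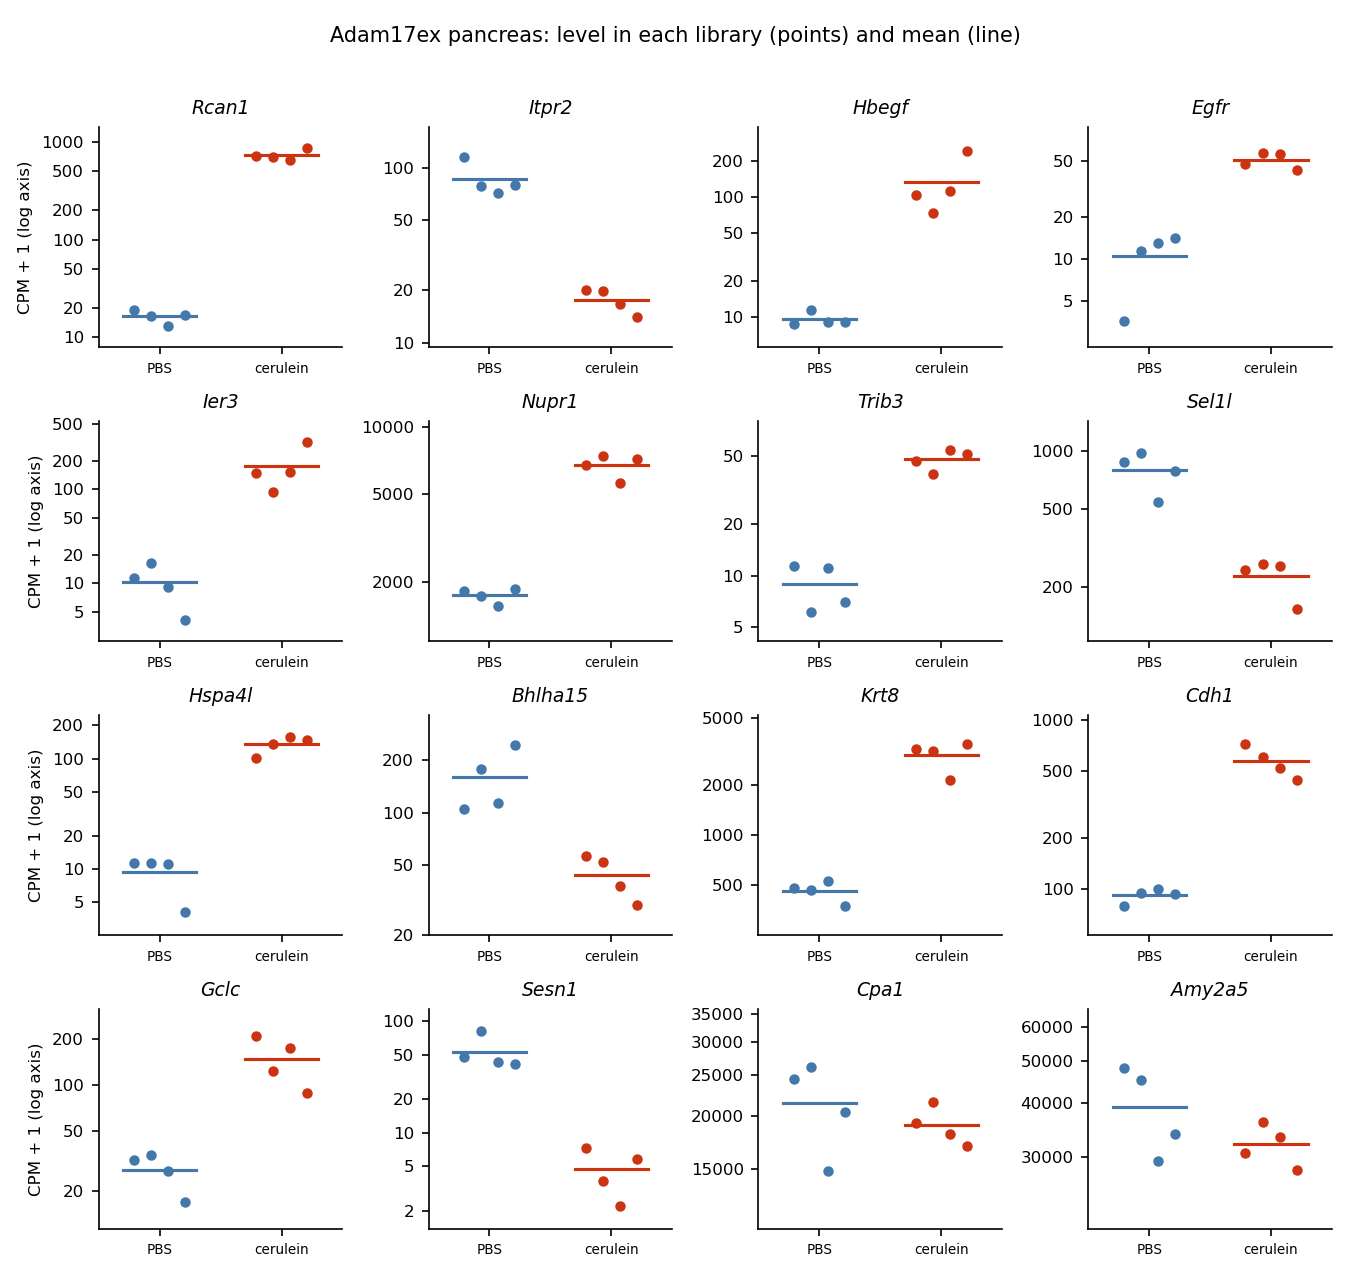
Level of 16 genes in the 4 PBS (blue) and 4 cerulein (red) Adam17ex libraries, as CPM + 1 on a log axis that differs between panels, with a point per library in replicate order and a line at the group mean. Cpa1 and Amy2a5, both enzyme genes, overlap between the groups, and the other 14 genes do not.

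Ligands and receptors of the EGF family, on which ADAM17 acts, were few in these libraries, and 3 of 5 tested members rose while 0 fell (3 of 7 and 0). Hbegf, the heparin-binding ligand that ADAM17 releases, was at 7.80, 10.3, 8.04 and 8.08 CPM with PBS and 103, 72.0, 112 and 242 CPM with cerulein (log2 fold change 3.98 ± 0.35). Btc, which encodes betacellulin, was at 0, 2.58, 2.01 and 2.02 CPM and then 10.5, 15.1, 31.2 and 35.4 CPM (3.64 ± 0.66), and Egfr, the receptor, at 2.60, 10.3, 12.1 and 13.1 CPM and then 46.4, 56.0, 55.2 and 42.2 CPM (2.23 ± 0.31). For all 3 genes every cerulein library lay above every PBS library. Areg, another ligand, had 6 UMIs in all PBS libraries and 16 in all cerulein libraries and was not tested. Of 9 tested genes of ADAM17 itself, its partners, inhibitors and paralogues, 2 rose and 1 fell (0 and 0). Adam10, the closest sheddase, rose by 1.07 ± 0.21 from 36.0 ± 3.07 CPM, and Rhbdf2, which encodes iRhom2, rose by 1.83 ± 0.44 from 0, 2.58, 6.03 and 9.09 CPM to 16.9, 17.8, 26.4 and 19.8 CPM. Timp3, the tissue inhibitor of ADAM17, fell from 72.8, 90.4, 94.4 and 54.5 CPM to 31.6, 29.3, 24.0 and 22.5 CPM (-1.51 ± 0.28). Without PBS replicate 4 the Rhbdf2 value was 2.73. Without the 3 shallow libraries the adjusted p was 0.0673 for Adam10, 0.203 for Rhbdf2 and 0.149 for Timp3.

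Among early response genes, 16 of 23 tested immediate early transcription factors rose and 0 fell (17 of 26 and 0), with a median log2 fold change of 1.69. Ier3, an early gene of growth factor and stress signalling, was at 10.4, 15.5, 8.04 and 3.03 CPM with PBS and 147, 93.3, 150.1 and 321 CPM with cerulein (4.50 ± 0.41). Egr1, a zinc finger factor induced through ERK, was at 2.60, 7.75, 22.1 and 8.08 CPM and then 192, 126, 106 and 112 CPM (3.69 ± 0.34). Btg2, an antiproliferative early gene, rose from 86.8 ± 35.2 to 461 ± 83.8 CPM, and Klf6 from 71.5 ± 18.9 to 324 ± 113 CPM. Zfp36l1, an RNA-binding protein that promotes decay of AU-rich messages, rose by 2.41 ± 0.21. Among MAP kinase feedback inhibitors 4 of 5 rose and 0 fell (3 of 8 and 0), with Dusp8, a phosphatase of stress kinases, at 15.6, 25.8, 4.02 and 9.09 CPM with PBS and 28.5, 38.2, 44.4 and 45.6 CPM with cerulein. Single libraries moved 3 of these values by over 1.5-fold while the call stood: without PBS replicate 4 Ier3 was 3.88, and without PBS replicate 3 Egr1 was 4.38 and Atf3, a stress factor of the same list, 4.37 in place of 3.37 ± 0.45.

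Transcripts of cytokine signalling through gp130 and STAT3 changed in both directions, with 10 of 18 tested members higher and 4 lower. Their median log2 fold change was 1.02, and 1.13 without the 3 shallow libraries. Signalling activity itself was not measured. Socs2, a feedback inhibitor of cytokine receptors, was at 10.4, 23.2, 12.1 and 35.4 CPM with PBS and 174, 235, 161 and 257 CPM with cerulein (3.26 ± 0.28). Stat3 rose from 35.9 ± 11.6 to 81.7 ± 7.50 CPM, and Il6st, which encodes gp130, from 48.5 ± 9.30 to 86.9 ± 14.3 CPM. Lif, a ligand of this receptor, had 3 UMIs in the PBS libraries and 75 in the cerulein libraries, a ratio of 12.9 with a 95% counting interval of 4.25 to 64.0. PBS replicate 1 held 2 of the 3 UMIs, so that at 5.20 CPM it lay above cerulein replicate 2 at 4.44 CPM, and the fitted log2 fold change was 3.55 with that library and 4.83 without it. Il6ra, the receptor subunit that ADAM17 sheds, fell from 44.2, 36.1, 42.2 and 32.3 CPM to 27.4, 16.9, 15.6 and 20.4 CPM (-0.91 ± 0.27, adjusted p = 0.0126). Il11ra1 and Pim3 fell as well (log2 fold changes -1.50 ± 0.25 and -1.92 ± 0.34). The call for Il6ra was lost without PBS replicate 3 (adjusted p = 0.0526) and without cerulein replicate 2 (0.055), and those for Il6ra, Il6st and Il11ra1 without the 3 shallow libraries (adjusted p = 0.379, 0.0613 and 0.0601). Il6 had 0 UMIs and Tnf 3 UMIs in all 8 libraries together, so neither cytokine could be followed at this depth.

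Secreted injury proteins rose in 6 of 15 tested members and fell in 0 (4 of 16 and 1), while 1 fell without PBS replicate 1, cerulein replicate 3 or cerulein replicate 4. Reg3b, a lectin that acinar cells release in pancreatitis, was at 905, 209, 512 and 166 CPM with PBS and 1946, 2085, 1438 and 1511 CPM with cerulein, without overlap (2.11 ± 0.66, adjusted p = 0.0187). PBS replicates varied widely in this gene, and the adjusted p was 0.0674 without PBS replicate 2 and 0.0692 without PBS replicate 4. Its relative Reg3d rose from 327 ± 117 to 659 ± 99.4 CPM, Clu, the extracellular chaperone clusterin, from 1496 ± 216 to 3147 ± 411 CPM, and Lcn2, an iron-sequestering lipocalin, from 3.05 ± 2.21 to 24.7 ± 5.51 CPM. Without the 3 shallow libraries the adjusted p was 0.055 for Reg3b, 0.0658 for Reg3d and 0.0605 for Clu. Of 10 tested NF-kB subunits and targets, 3 rose and 0 fell (4 of 17 and 0), among them Rela, the p65 subunit, from 18.9 ± 3.74 to 82.4 ± 19.3 CPM. Without PBS replicate 4, 1 of 11 was called higher.

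The integrated stress response, in which phosphorylation of eIF2 favours translation of ATF4 and hence its target genes, was among the lists with the largest share of members called higher: 21 of 27 rose and 0 fell (16 of 28 and 0), with a median log2 fold change of 1.11. The ATF4 and CHOP sites of such promoters contain the core TGATGCAA, found on either strand in 0.895% of all RefSeq promoter windows. The windows of 5 of the 23 list members matched to RefSeq held it, and 4 of these are shown with the promoter of Atf3, a further target, because they let a reader see the site beside the response. Capitals mark the core, read on the gene's strand, where TTGCATCA is the core on the other strand. Positions in GRCm38.p6 are chr7:126625562-126625591 (Nupr1, minus strand), chr7:45615611-45615640 (Fgf21, minus), chr2:119351038-119351067 (Chac1, plus), chr3:50443661-50443690 (Slc7a11, minus) and chr1:191183425-191183454 (Atf3, minus), all upstream of the start.

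Nupr1: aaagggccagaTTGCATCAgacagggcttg
Fgf21: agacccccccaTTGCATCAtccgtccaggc
Chac1: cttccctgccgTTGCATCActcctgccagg
Slc7a11: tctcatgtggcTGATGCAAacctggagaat
Atf3: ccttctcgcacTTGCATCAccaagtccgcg

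Nupr1, a small chromatin-associated protein strongly induced in pancreatitis, was among the most abundant of these at 1831, 1738, 1559 and 1856 CPM with PBS and 6736, 7406, 5594 and 7196 CPM with cerulein (1.95 ± 0.21). Fgf21, a hormone that promotes enzyme secretion, was at 28.6, 106, 30.1 and 28.3 CPM and then 124, 164, 227 and 407 CPM, and PBS replicate 2 stood above the other PBS libraries. Its log2 fold change was 2.39 ± 0.39, and 2.99 without that library. Chac1, which degrades glutathione, was at 20.8, 82.6, 24.1 and 42.4 CPM and then 81.2, 193, 176 and 199 CPM, with cerulein replicate 1 just below PBS replicate 2 (1.93 ± 0.39, adjusted p = 0.000655). Atf3 was at 2.60, 2.58, 12.1 and 2.02 CPM and then 36.9, 44.4, 38.4 and 68.1 CPM. Slc7a11, the cystine transporter, had the core 2 times in its window and a difference of 0.74 ± 0.28 (adjusted p = 0.0521), and Vldlr, with the core, one of -0.39 ± 0.27 (adjusted p = 0.283), neither past the threshold. Slc7a11 passed it without PBS replicate 2 (adjusted p = 0.0115) or cerulein replicate 1 (0.0221). A motif match describes the window and does not show that a factor was bound.

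Further members of the response rose. Trib3, a pseudokinase that dampens ATF4, was at 10.4, 5.16, 10.0 and 6.06 CPM with PBS and 45.4, 38.2, 52.8 and 50.4 CPM with cerulein (2.59 ± 0.33). Eif2ak3, the ER kinase PERK that phosphorylates eIF2, was at 39.0, 36.1, 40.2 and 66.7 CPM and then 209.9, 199.9, 196 and 173 CPM (2.03 ± 0.20). Atf4 rose from 254 ± 60.8 to 546 ± 86.4 CPM, Slc3a2, an amino acid transporter chain, from 141 ± 21.9 to 417 ± 39.4 CPM, and Cebpg, a partner of ATF4, from 31.8 ± 6.52 to 97.0 ± 12.9 CPM. In all 5 genes the groups did not overlap. Cytosolic aminoacyl-tRNA synthetases, which charge tRNAs and include ATF4 targets, rose in 10 of 20 and fell in 1 (7 and 1), and in 0 without PBS replicate 4 or cerulein replicate 4. Rars rose by 1.60 ± 0.20 and Gars by 1.56 ± 0.18.

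In the same libraries the genes of ER folding did not rise as a group. Of 27 tested ER chaperones and folding enzymes, 4 rose and 6 fell (2 and 3 of 28), near the background of all genes, and of 20 genes of ER-associated degradation 1 rose and 7 fell (0 and 5), with 2 higher without PBS replicate 3 and 3 without cerulein replicate 1. The ER stress response element (ERSE), through which ATF6 and XBP1 act on such genes, was present in 0.119% of all promoter windows, in 7 of 28 windows of the chaperone list and in 2 of 16 of the degradation list. Those of Hspa5, Creld2 and Derl3 are shown since they carry the element with different responses, at chr2:34772014-34772054 (Hspa5, plus strand), chr15:88819509-88819549 (Creld2, plus) and chr10:75893231-75893271 (Derl3, plus), with the element in capitals.

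Hspa5: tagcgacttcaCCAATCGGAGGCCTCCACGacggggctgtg
Creld2: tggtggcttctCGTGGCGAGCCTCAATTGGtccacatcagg
Derl3: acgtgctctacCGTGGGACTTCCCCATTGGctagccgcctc

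Hspa5, the ER chaperone BiP, was at 1254, 950.2, 573 and 574 CPM with PBS and 1166, 1153, 833 and 824 CPM with cerulein, overlapping, with a difference of 0.25 ± 0.27 (adjusted p = 0.516). Creld2 was at 125, 103, 56.3 and 60.6 CPM and then 43.3, 47.1, 45.6 and 50.4 CPM (-0.84 ± 0.25, adjusted p = 0.0152). That call was lost in 5 of 22 alternatives, over which the log2 fold change ran from -1.03 to -0.21. Among these were the fits without PBS replicate 1 or 2 or cerulein replicate 1 (adjusted p = 0.152, 0.0611 and 0.0589). Derl3, a channel component of ER-associated degradation that acinar cells express strongly, fell from 83.2, 74.9, 46.2 and 88.9 CPM to 22.2, 24.9, 21.6 and 49.0 CPM (-1.29 ± 0.24), with cerulein replicate 4 above PBS replicate 3. Sel1l, the scaffold of the HRD1 ubiquitin ligase, had the strongest fall of that list, from 871, 973, 542 and 786 CPM to 242, 260.4, 253 and 153 CPM (-1.78 ± 0.25), and Os9, a lectin that delivers misfolded glycoproteins to it, also fell (-1.27 ± 0.21). The co-chaperones Sdf2l1 and Dnajb11 fell from 98.0 ± 25.5 to 49.2 ± 19.4 CPM and from 99.4 ± 13.6 to 52.5 ± 8.97 CPM. Dnajb9 and the oxidase Ero1l went the other way, from 37.4 ± 10.1 to 89.7 ± 24.4 CPM and from 16.9 ± 8.97 to 51.5 ± 3.47 CPM. The number of chaperones called lower was 3 without cerulein replicate 1, 3 without cerulein replicate 4 and 2 without PBS replicate 1, and the number called higher was 2 without cerulein replicate 2. With the label code as a term in the 8 libraries alone, 8 of 26 chaperones were lower and 2 higher. In that fit 761 of all 6648 genes were lower and 697 higher.

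Cytosolic heat shock genes rose in 9 of 21 and fell in 0 (7 and 0), with 1 lower without cerulein replicate 1. Hspa4l, a nucleotide exchange factor of HSP70, was at 10.4, 10.3, 10.0 and 3.03 CPM with PBS and 99.2, 135, 155 and 146 CPM with cerulein, a log2 fold change of 4.16 ± 0.32, the largest of the list. The small chaperone Hspb1 rose by 1.61 ± 0.27, Hsp90aa1 by 1.28 ± 0.21 and the mitochondrial HSP70 Hspa9 by 1.14 ± 0.20. Among NRF2 targets and glutathione genes 5 of 19 rose and 3 fell (3 and 3 of 21), with 1 lower without PBS replicate 4 or cerulein replicate 4. Srxn1, which repairs oxidised peroxiredoxins, was at 5.20, 5.16, 14.1 and 2.02 CPM and then 71.7, 29.3, 52.8 and 42.2 CPM (3.01 ± 0.43, or 3.84 without PBS replicate 3). The subunits of glutamate-cysteine ligase, the first enzyme of glutathione synthesis, moved in opposite directions: Gclc, the catalytic one, from 31.2, 33.6, 26.1 and 16.2 CPM to 207, 121, 173 and 87.2 CPM and Gclm, the modifier, from 44.2, 41.3, 38.2 and 61.6 CPM to 21.1, 17.8, 22.8 and 12.9 CPM. Txnrd1, a thioredoxin reductase, rose by 1.10 ± 0.25, a call lost in 1 of 22 alternatives.

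The metal-binding proteins Mt1 and Mt2 rose, from 1144 ± 399.7 to 4029.9 ± 1582 CPM and from 254 ± 85.2 to 1261 ± 611 CPM, while Slc30a2, which loads zinc into secretory granules, fell from 20.8, 28.4, 34.2 and 36.4 CPM to 8.44, 10.7, 4.80 and 12.9 CPM. Of the 11 tested genes of that list 3 rose and 1 fell (1 and 2 of 12), and the adjusted p for Mt1 was 0.0619 without the 3 shallow libraries. Growth arrest genes split as well, with 5 of 13 higher and 3 lower (5 and 3 of 16). Cdkn1a, the cell cycle inhibitor p21, was at 18.2, 25.8, 34.2 and 19.2 CPM with PBS and 132, 141, 156 and 219 CPM with cerulein (2.76 ± 0.28), and Gadd45b and Trp53inp1 rose by 2.67 ± 0.32 and 2.59 ± 0.26. Sesn1, a p53 target that restrains mTORC1, went from 46.8, 80.0, 42.2 and 40.4 CPM to 6.33, 2.67, 1.20 and 4.77 CPM, a log2 fold change of -3.72 ± 0.48. Of 11 tested BCL2 family genes 2 rose and 3 fell (1 and 1 of 12), with 1 lower without PBS replicate 1 or cerulein replicate 2. The survival genes Bcl2l1 and Mcl1 rose from 17.3 ± 8.45 to 106 ± 25.7 CPM and from 59.7 ± 15.8 to 122 ± 15.3 CPM, and Bnip3, a mitophagy receptor, fell from 30.7 ± 15.3 to 8.92 ± 2.47 CPM. Without the 3 shallow libraries the adjusted p for Mcl1 was 0.0571.

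Factors that hold acinar identity moved apart. Of 15 tested, 4 rose and 7 fell (2 and 4 of 17). Bhlha15, which encodes MIST1, the organiser of the secretory apparatus, was at 104, 178, 113 and 245 CPM with PBS and 55.9, 51.5, 37.2 and 28.6 CPM with cerulein (-1.84 ± 0.24). Rbpjl, the acinar subunit of the PTF1 complex, was at 879, 539.6, 394 and 305 CPM and then 188, 241, 176 and 124 CPM (-1.52 ± 0.28), with an adjusted p of 0.275 without the 3 shallow libraries. Its partner Ptf1a rose, from 54.6, 62.0, 40.2 and 66.7 CPM to 211, 123, 198 and 123 CPM (1.53 ± 0.22), as did Foxa3, from 42.1 ± 13.5 to 135 ± 13.1 CPM. The enzyme genes that these factors drive did not follow as a group: of 20 proteases and zymogens 3 rose and 0 fell (4 and 0), and of 14 lipases, amylases and nucleases 0 rose and 1 fell (0 and 0), near or below the shares over all genes. Without PBS replicate 4, 6 proteases were called higher. The 1 lower call among the lipases, amylases and nucleases became 2 without PBS replicate 3, stood without cerulein replicate 2 and was lost without any of the other 6 libraries, and 1 gene was called higher without PBS replicate 1. Amy2a5 was at 48276, 45231, 29326 and 33905 CPM with PBS and 30628, 36233, 33431 and 28043 CPM with cerulein (-0.29 ± 0.22, adjusted p = 0.344), and Cpa1 differed by -0.17 ± 0.21 (adjusted p = 0.562), both overlapping between groups. The proteases that rose were Prss1, from 125, 367, 135 and 326 CPM to 715, 1413, 1111 and 1233 CPM, Prss3, by 1.83 ± 0.41 (2.42 without PBS replicate 2), and Ctsl, a lysosomal cathepsin that degrades trypsinogen, from 369 ± 64.4 to 1024 ± 205 CPM. Trypsinogen genes are near-identical copies that can share reads, so values of single members are uncertain.

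Along the secretory route, 1 of 19 zymogen granule and exocytosis genes rose and 3 fell (1 and 1 of 21), and 2 of 40 ER translocation and COP transport genes rose and 6 fell (1 and 2). In both lists the share called lower was near the 16.2% over all genes, and the share called higher was below the 14.1%. The number of ER translocation and COP transport genes called higher was 0 without PBS replicate 3 or 4 and 1 without any 1 of the cerulein libraries. Stx3, a granule SNARE, rose from 5.20, 10.3, 12.1 and 9.09 CPM to 34.8, 44.4, 51.6 and 37.5 CPM. Lman1, the cargo receptor ERGIC-53, fell from 186 ± 39.9 to 91.9 ± 13.8 CPM (adjusted p = 0.0936 without the 3 shallow libraries) and Sec62, a translocon subunit, from 529 ± 99.0 to 295 ± 5.64 CPM. Genes of amino acid handling in acinar cells fell in 10 of 16 members, with 4 higher. Their median log2 fold change was -0.90, and -0.89 without the 3 shallow libraries. Bcat2, the branched-chain transaminase, fell from 257, 134, 100.5 and 130.3 CPM to 50.6, 24.0, 45.6 and 28.6 CPM (-2.06 ± 0.32). Gatm, which makes the creatine precursor, and the transporter Slc7a8 fell as well (-1.99 ± 0.22 and -1.81 ± 0.29).

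Epithelial structure genes rose in part, with shares that differed between lists. Of 22 tested junction genes 13 rose and 1 fell (8 and 1 of 24), of 29 actin cytoskeleton genes 15 rose and 2 fell (13 and 0 of 30), of 9 tubulins 5 rose and 0 fell (5 and 0), and of 17 keratin and duct or metaplasia genes 6 rose and 1 fell (5 and 1 of 20). Without PBS replicate 3, 0 actin genes were called lower, and without PBS replicate 4 or cerulein replicates 1, 2 or 3 1 was. For the keratin list 0 were lower without PBS replicate 4 and 2 without cerulein replicate 4. Krt8, the simple epithelial keratin of acinar and duct cells, was at 481, 467, 526 and 372 CPM with PBS and 3294, 3176, 2131 and 3528 CPM with cerulein (2.71 ± 0.21). Its partner Krt18 rose from 374 ± 25.4 to 1607 ± 216 CPM and the duct keratin Krt19 from 58.7 ± 13.9 to 151 ± 28.7 CPM. Cdh1, which encodes E-cadherin, was at 78.0, 93.0, 98.4 and 91.9 CPM and then 717, 601, 515 and 436 CPM (2.65 ± 0.19), and Dsp, the desmosomal plaque protein, rose by 2.36 ± 0.20. Epcam and the gap junction gene Gjb2 rose by 1.33 ± 0.20 and 1.90 ± 0.27. Cldn10 was the 1 junction gene that fell, from 36.4, 74.9, 34.2 and 111 CPM to 9.49, 9.78, 4.80 and 8.86 CPM. The actin regulators Actn1, Tagln2 and Tpm4 rose by 1.98 ± 0.22, 2.13 ± 0.19 and 2.29 ± 0.22, Actg1, cytoplasmic actin, from 243 ± 84.3 to 822 ± 189 CPM, and the tubulins Tuba1c and Tuba4a by 2.33 ± 0.28 and 1.12 ± 0.21. Without PBS replicate 3, 8 tubulins were called higher. Summed levels of 11 duct cell markers overlapped between the groups, at 3192 to 5777 CPM with PBS and 3006 to 4516 CPM with cerulein, and 3 of its 7 tested members rose while 0 fell (2 of 8 and 0), with 1 lower without cerulein replicate 4.

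Genes of growth rose in part. Ribosome biogenesis genes rose in 11 of 29 and fell in 0 (10 and 0), for example Rrp12 by 1.72 ± 0.32, Nop58 by 1.56 ± 0.25 and the helicase Ddx21 by 1.30 ± 0.20. Translation factors rose in 13 of 31 and fell in 1 (8 and 0; in 0 also without PBS replicates 1 or 4 or cerulein replicates 2 or 4), with Eif1a at 40.1 ± 10.5 CPM and then 126 ± 15.6 CPM. Cytosolic ribosomal proteins rose in 17 of 55 and fell in 0, but in 0 of 55 without the 3 shallow libraries, in 5 without cerulein replicate 2 and in 10 without PBS replicate 2. Sat1, which breaks down polyamines, rose from 45.4 ± 15.9 to 192 ± 53.4 CPM, more than Odc1, which makes them, from 49.9 ± 12.5 to 78.9 ± 2.64 CPM (adjusted p = 0.0103, and 0.164 without the 3 shallow libraries); the difference between these changes was not tested. Of 8 tested cell cycle genes 0 rose and 2 fell (0 and 0 of 11), while 4 of 10 fell without PBS replicate 1, cerulein replicate 3 or cerulein replicate 4 and 1 without PBS replicate 3. Ccnd1, the cyclin of G1 phase, fell from 53.3 ± 14.6 to 23.9 ± 5.24 CPM (adjusted p = 0.0884 without the 3 shallow libraries). Of 31 tested splicing factor genes 8 rose and 2 fell (3 and 1). Clk4 of this list, a kinase of splicing factors, fell from 98.8, 74.9, 36.2 and 45.5 CPM to 19.0, 23.1, 19.2 and 23.2 CPM.

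In metabolism, 4 of 13 glycolysis and glucose uptake genes rose and 2 fell (2 and 1 of 18), and 1 fell without PBS replicates 2 or 3 or cerulein replicates 2, 3 or 4. Slc2a1, the glucose transporter GLUT1, was at 2.60, 2.58, 4.02 and 3.03 CPM with PBS and 25.3, 23.1, 21.6 and 21.8 CPM with cerulein (2.88 ± 0.45), and Pdk1, which blocks entry of pyruvate into mitochondria, fell from 52.0, 25.8, 28.1 and 58.6 CPM to 8.44, 7.11, 4.80 and 4.77 CPM (-2.77 ± 0.37). Of 13 cholesterol genes 6 rose and 0 fell (4 of 15 and 0), among them Sqle, squalene epoxidase, by 2.23 ± 0.35 and Insig1, a sterol sensor, by 1.85 ± 0.18. Mitochondrially encoded genes fell in 9 of 11 and rose in 0 (5 and 0), with a median of -0.77, and 4 fell without cerulein replicate 1. The mitochondrial share of UMIs was 1.90% ± 0.425 with PBS and 1.24% ± 0.223 with cerulein (SD, n = 4; exact two-sided permutation p = 0.0571, adjusted 0.152). The 3 shallow PBS libraries held 2.333%, 1.904% and 2.055%, while PBS replicate 4, at 1.326%, lay inside the cerulein range of 1.016% to 1.549%. Nuclear-encoded respiratory chain genes had 1 of 50 called higher and 7 lower (0 and 6). Ndufs7 fell from 109.9 ± 32.8 to 54.0 ± 6.00 CPM and Cycs, cytochrome c, rose from 72.0 ± 5.89 to 126 ± 19.1 CPM (adjusted p = 0.103 without the 3 shallow libraries). The number of respiratory chain genes called lower was 2 without PBS replicate 4, 2 without cerulein replicate 1 and 4 without PBS replicate 3 or cerulein replicate 2 or 4, and 2 were called higher without PBS replicate 4. Fatty acid oxidation genes fell in 6 of 13 and rose in 0 (3 of 19 and 0), with 3 lower without PBS replicate 3 and 2 without PBS replicate 4. Of 29 autophagy and lysosome genes 6 rose and 6 fell (3 and 5). Vmp1, a membrane protein of autophagosome formation induced in pancreatitis, rose by 1.60 ± 0.21, and Sqstm1, the cargo receptor p62, by 1.31 ± 0.19, while Ulk1, the initiating kinase, fell (-1.72 ± 0.38). Without PBS replicate 4, 1 gene of this list was called lower. Of 32 proteasome genes 5 rose and 0 fell (2 and 0), Psmd8 by 1.33 ± 0.18.

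Circadian clock genes held several of the largest falls. Of 19 tested, 5 rose and 9 fell (3 and 7). The clock runs on a feedback loop in which BMAL1 (Arntl) and CLOCK bind E-boxes (CACGTG) and drive their own repressors and the PAR bZIP output factors. E-boxes stood in 7.15% of all promoter windows and in those of 4 of the 15 list members matched to RefSeq. The sites of Tef, Ciart and Cry1 are shown since these genes moved in opposite directions, at chr15:81802535-81802562 and chr15:81811265-81811292 (Tef, plus strand, one in each of its promoters), chr3:95882328-95882355 (Ciart, minus, the first of 3) and chr10:85185098-85185125 (Cry1, minus), with the E-box in capitals.

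Tef upstream promoter: tgctgtggctcCACGTGctgcagctggc
Tef downstream promoter: acctggcccagCACGTGtctacatcgtt
Ciart: gcatctagagtCACGTGttgccggtaag
Cry1: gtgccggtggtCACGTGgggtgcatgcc

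Dbp, a PAR bZIP output factor, was at 78.0, 72.3, 50.2 and 106 CPM with PBS and 4.22, 2.67, 1.20 and 2.04 CPM with cerulein (-4.89 ± 0.43), and Tef, its relative, at 112, 62.0, 94.4 and 86.9 CPM and then 1.05, 1.78, 6.00 and 4.77 CPM (-4.64 ± 0.32). Per3, a period gene, went from 39.0, 25.8, 26.1 and 26.3 CPM to 2.11, 0.889, 0 and 0.681 CPM (-4.79 ± 0.56) and Ciart, a repressor of the loop, from 18.2, 18.1, 10.0 and 21.2 CPM to 1.05, 4.44, 3.60 and 2.04 CPM (-2.58 ± 0.46). Nr1d2, which encodes the nuclear receptor REV-ERBβ, went from 54.6, 46.5, 38.2 and 61.6 CPM to 8.44, 2.67, 4.80 and 1.36 CPM (-3.64 ± 0.39). These 5 genes were separated in every library. Nr1d1, which encodes REV-ERBα, had 36 UMIs in the PBS libraries and 2 in the cerulein libraries, 34.8-fold lower with a 95% counting interval of 8.97 to 299. Usp2, a clock-controlled ubiquitin protease, fell too (-3.03 ± 0.28). Genes of the opposite phase rose. Nfil3, a repressor that competes with the PAR bZIP factors, had 2 UMIs with PBS and 142 with cerulein, a ratio of 36.7 with a 95% counting interval of 9.97 to 306, and its cerulein libraries lay at 32.7, 30.2, 34.8 and 32.7 CPM. Arntl was at 2.60, 0, 4.02 and 1.01 CPM with PBS and between 9.49 and 13.3 CPM with cerulein (2.64 ± 0.63, or 3.31 without PBS replicate 3) and Cry1 at 10.4, 5.16, 6.03 and 8.08 CPM and then 16.9, 21.3, 16.8 and 23.8 CPM (1.40 ± 0.36), with an adjusted p for Cry1 of 0.126 without the 3 shallow libraries.

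The WT groups differed from this pattern. Dbp was at 3.81 ± 4.03 CPM in WT PBS and 5.07 ± 2.64 CPM in WT cerulein libraries (mean ± SD, n = 4), close to the Adam17ex cerulein level, and 1 WT PBS library held 0. Nr1d2 was at 7.24 ± 2.68 and 5.69 ± 2.07 CPM and Per3 at 3.24 ± 1.88 and 1.40 ± 1.41 CPM in the same groups, Arntl at 9.73 ± 4.97 and 6.80 ± 2.74 CPM and Cry1 at 26.3 ± 4.38 and 17.1 ± 5.28 CPM. By group mean, the Adam17ex PBS group was the one of the 4 that stood apart in these genes, as the plot of clock genes in all libraries shows. The cerulein responses differed between genotypes by the interaction test, by -5.48 ± 0.74 for Dbp (adjusted p = 0.000137) and -3.26 ± 0.62 for Nr1d2 (adjusted p = 0.00254). The time of day at which each group was culled is not given in the labels, so its part cannot be told apart from treatment and genotype.

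**Figure D3:**
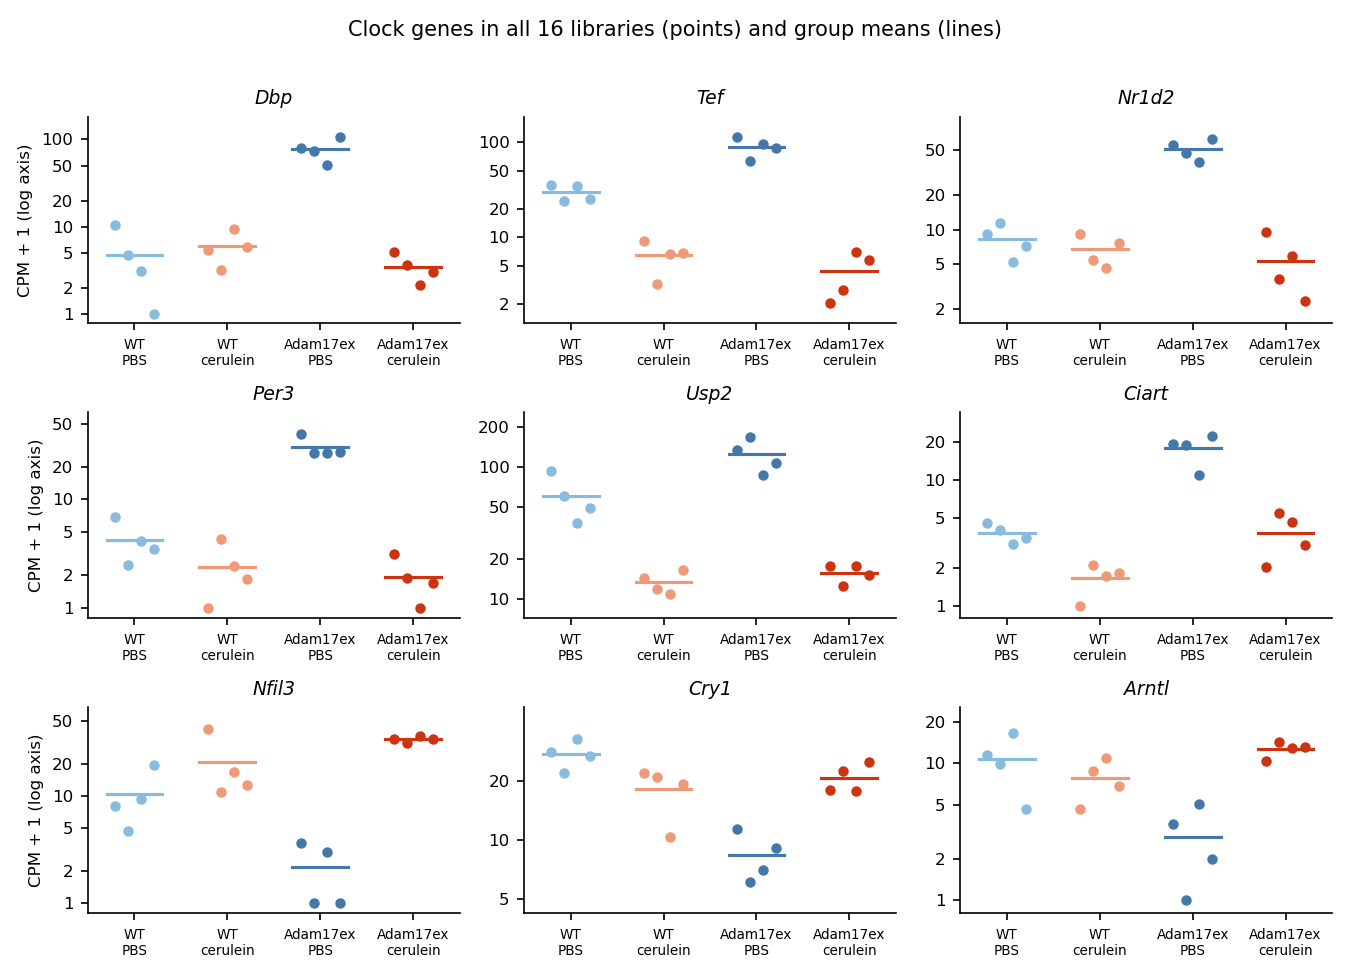
Level of 9 clock genes in all 16 libraries as CPM + 1 on a log axis that differs between panels, with a point per library in replicate order and a line at the group mean for WT PBS, WT cerulein, Adam17ex PBS and Adam17ex cerulein. In Dbp, Nr1d2, Per3, Ciart, Arntl and Cry1 the Adam17ex PBS mean lies apart from the other 3 groups, and in Tef and Usp2 cerulein libraries of both genotypes are low.

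Islet, macrophage, B cell, adipocyte and fibroblast markers were lower after cerulein, and these results rested on few libraries. Of 7 endothelial markers 1 was lower (0 of 8 without the 3 shallow libraries, and 0 of 7 without PBS replicate 3), and of 5 erythroid markers 0 were called (0). Islet genes fell in 12 of 17 and rose in 0, with a median of -1.83. Ins2, which encodes insulin, was at 9979, 15494, 11466 and 3910.1 CPM with PBS and 1209, 1498, 4577 and 3809.7 CPM with cerulein (-1.87 ± 0.49), with PBS replicate 4 inside the cerulein range. Summed over 17 islet markers, libraries held 1.30% ± 0.635 of UMIs with PBS and 0.380% ± 0.241 with cerulein (SD, n = 4; exact two-sided permutation p = 0.0857, adjusted 0.152). Without the 3 shallow libraries 0 islet genes were called and the median was 0.28, with Ins2 at -0.15, Ins1 at -0.04, Gcg, the glucagon gene, at 0.72 and Chga at 0.02. With all libraries Ins1, Gcg and Chga were at -2.22 ± 0.56, -1.57 ± 0.56 and -2.10 ± 0.57. Leaving out 1 library gave 3 called islet genes without PBS replicate 2 and 6 without PBS replicate 3, cerulein replicate 1 or cerulein replicate 2. The call for Gcg was lost without any 1 of PBS replicates 1 to 3 and cerulein replicates 1, 2 and 4 (adjusted p up to 0.186), the call for Chga without PBS replicate 2 (adjusted p = 0.061), and without cerulein replicate 3 Ins1, Gcg and Chga were at -2.89, -2.35 and -2.73.

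Macrophage and monocyte markers fell in 5 of 12 tested, B and plasma cell markers in 7 of 7, adipocyte markers in 6 of 7 and fibroblast and stellate cell markers in 9 of 12, with 0 higher in each. The tested B and plasma cell markers include Cd74, H2-Aa and H2-Eb1, which are genes of antigen-presenting cells and not of B cells alone. PBS replicate 3 stood far above the other PBS libraries, with a summed level of 1653 CPM for 17 macrophage markers against 156.2 to 449.7, of 2366 CPM for 13 B cell markers against 119.7 to 710.2 and of 2412 CPM for 18 fibroblast markers against 566.1 to 1203 CPM. Without that library 0 macrophage and 0 B cell markers, 2 adipocyte markers and 2 fibroblast markers were called lower, and without the 3 shallow libraries 0 of 13 macrophage, 2 of 11 B cell, 7 of 11 adipocyte and 1 of 16 fibroblast markers. Cd74, the invariant chain of antigen-presenting cells, was at 49.4, 51.6, 460.1 and 97.0 CPM with PBS and 29.5, 24.0, 40.8 and 25.9 CPM with cerulein (-2.37 ± 0.58, and -1.08 with adjusted p = 0.101 without PBS replicate 3). The same step moved Csf1r, the macrophage growth factor receptor, from -2.75 ± 0.62 to -1.65, Lyz2 from -1.92 ± 0.52 to -0.99, Ighm from -3.29 ± 0.94 to -2.30 and Dcn, the fibroblast proteoglycan decorin, from -1.08 ± 0.26 to -0.67, each then above the threshold. Adipoq, the adipocyte hormone, was at -3.56 ± 0.82, at -2.92 and -2.87 without PBS replicates 3 and 4 and at -5.48 without cerulein replicate 3, and Ighm at -5.20 without cerulein replicate 3. Counts also moved without cerulein replicate 2, to 3 macrophage, 3 B cell and 4 fibroblast markers, without cerulein replicate 4, to 3 adipocyte and 5 fibroblast markers, without PBS replicate 4, to 3 adipocyte markers, and without PBS replicate 1, to 8 macrophage markers. Neutrophil markers summed to 2.029 to 17.56 CPM with PBS and 6.097 to 39.3 CPM with cerulein, and none of them passed the filter. Camp and Ngp were at 0 in all 8 libraries. T and NK cell markers summed to 0 to 116.3 CPM with PBS and 0 to 16.18 CPM with cerulein.

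**Figure D4:**
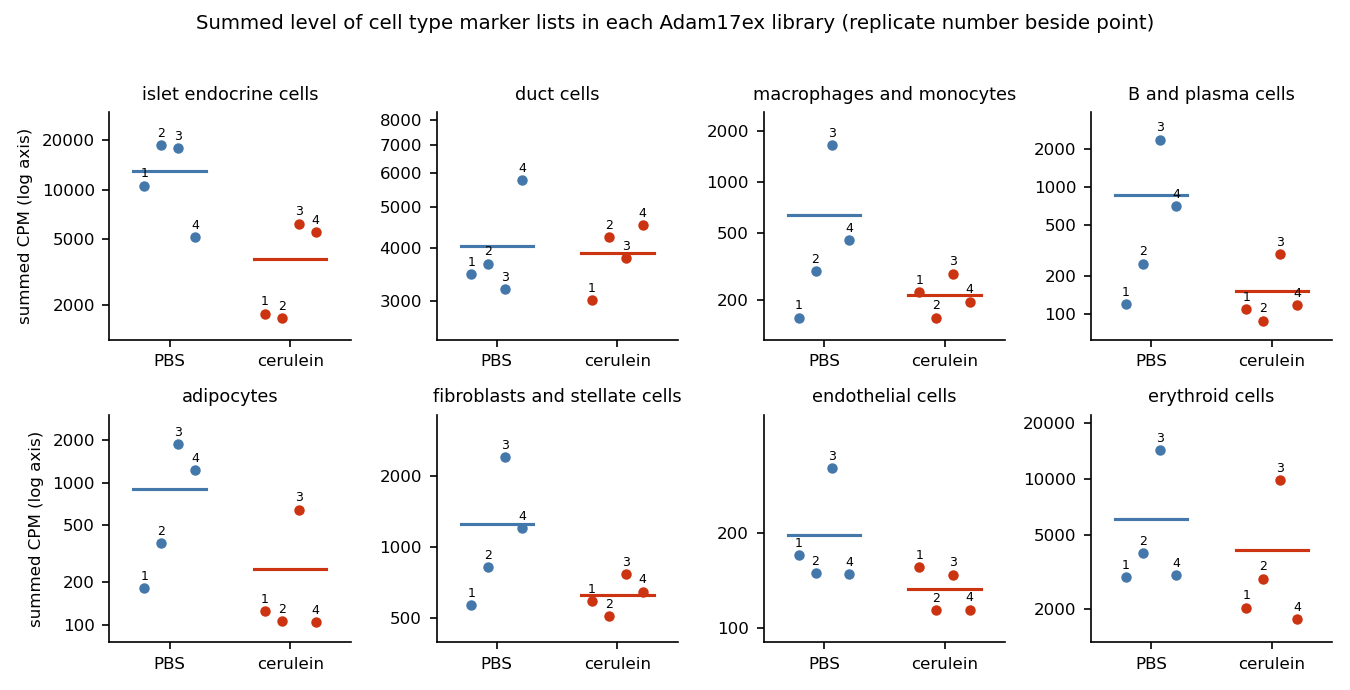
Summed level of 8 cell type marker lists in each Adam17ex library, in CPM without TMM scaling. The log axis differs between panels, the replicate number is above each point and a line marks the group mean. PBS replicate 3 is the highest library in the macrophage, B cell, adipocyte, fibroblast, endothelial and erythroid panels, and PBS replicate 4 lies within the range of the cerulein libraries in the islet panel.

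Among the genes with the largest changes of all, Tac1, which encodes substance P, had 1 UMI with PBS and 88 with cerulein, spread as 22.2, 9.78, 2.40 and 36.8 CPM over the 4 replicates, a ratio of 45.5 with a 95% counting interval of 7.95 to 1820. Tlcd2 had 1 and 85 UMIs (ratio 43.9, interval 7.67 to 1750) and Dhrs9, a retinol dehydrogenase, 2 and 79 UMIs (ratio 20.4, interval 5.46 to 171). Pkdcc, a secreted tyrosine kinase, was at 7.80, 2.58, 6.03 and 3.03 CPM with PBS and 59.1, 70.2, 73.2 and 64.0 CPM with cerulein (3.84 ± 0.35), and Kel, a membrane endopeptidase, at 7.80, 18.1, 16.1 and 5.05 CPM and then 121, 125, 118 and 186 CPM (3.70 ± 0.35). On the lower side, Smim38 went from 26.0, 62.0, 46.2 and 165 CPM to 5.27, 2.67, 4.80 and 0.681 CPM (-4.62 ± 0.45, with -3.84 without PBS replicate 4 and -3.86 without cerulein replicate 4). The antisense transcript Galnt6os went from 39.0, 72.3, 54.2 and 92.9 CPM to 5.27, 0, 4.80 and 2.72 CPM (-4.43 ± 0.38), and since strand use in counting is not given in the sources used here, its reads may not be told apart from those of Galnt6. Sostdc1, a secreted BMP and WNT antagonist, Ppp1r1b, a phosphatase inhibitor, and Fchsd2 fell with log2 fold changes of -4.18 ± 0.53, -3.78 ± 0.53 and -3.23 ± 0.33, and Sostdc1 was at -4.79 without cerulein replicate 1. Neat1, the nuclear RNA that scaffolds paraspeckles, rose from 2229.8 ± 646 to 5334 ± 1002 CPM. Anxa7, a calcium-dependent membrane-fusion annexin, rose by 1.23 ± 0.25. In its list, annexins and S100 proteins, 2 of 14 rose and 3 fell (2 and 1 of 17). Those counts were 5 and 0 of 15 without PBS replicate 3, and 4 of 14 rose without cerulein replicate 1. The number called lower was 0 without PBS replicate 4 or cerulein replicate 4 and 1 without cerulein replicate 2.

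To see where the Adam17ex response differed from that of WT, the difference of the 2 cerulein effects was tested as an interaction. It was called for 496 of 8236 genes (6.02%), with 309 (3.75%) higher and 187 (2.27%) lower in Adam17ex than in WT, and for 152 genes without the 3 shallow libraries. In WT alone 3388 genes (41.1%) were called. Leaving out Adam17ex cerulein replicate 2, Adam17ex cerulein replicate 3 or WT cerulein replicate 3 gave 239, 314 and 322. Rcan1 rose in both genotypes but further in Adam17ex, by 2.79 ± 0.33 (adjusted p = 4.04e-05), with WT cerulein libraries at 103 ± 21.2 CPM. Cckar fell from 361 ± 59.6 to 21.7 ± 2.32 CPM in WT, so its response was 3.12 ± 0.39 higher in Adam17ex (adjusted p = 5.16e-05). Hbegf (interaction 2.67 ± 0.54) rose further in Adam17ex, and Pkdcc, at 6.23 ± 3.38 and 7.01 ± 2.42 CPM in WT, differed by 3.77 ± 0.56. Fgf21 fell in WT, from 31.6 ± 8.80 to 5.79 ± 4.53 CPM, and the difference was 4.67 ± 0.65 (adjusted p = 0.000162). Ceacam1, an adhesion molecule, and Hmga1, a chromatin protein, were at 209 ± 57.6 and 165 ± 26.4 CPM in WT cerulein libraries and at 23.0 ± 2.53 and 13.9 ± 1.76 CPM in Adam17ex cerulein libraries, where neither passed the test against PBS (differences -0.34 ± 0.22 and 0.33 ± 0.42). Both genes have near-identical relatives that can share their reads. Cyp39a1, an oxysterol hydroxylase, fell less in Adam17ex, by 2.76 ± 0.33. The WT PBS group held 4 females and the WT cerulein group 3 females and 1 male, and sex was a term of the model. The label code was over 2000 in 4 WT PBS and 0 WT cerulein libraries, so in WT it cannot be told apart from treatment. No fit of the interaction, alternatives included, held the code as a term.

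By list, the interaction was called higher in Adam17ex for 11 of 27 ER chaperones, 6 of 20 degradation genes, 9 of 27 integrated stress response genes, 11 of 40 ER translocation and COP genes, 8 of 50 respiratory chain genes and 6 of 16 acinar amino acid genes, and lower in 0 of each. These counts were, without the 3 shallow libraries, 7 of 28, 1 of 20, 3 of 28, 1 of 40, 0 of 50 and 2 of 16. In WT 21 chaperones, 30 translocation and COP genes and 42 respiratory chain genes fell after cerulein. It was lower in Adam17ex for 9 of 17 keratin and duct or metaplasia genes, 7 of 29 actin genes, 6 of 21 heat shock genes and 5 of 29 autophagy genes, and higher for 1 heat shock gene, Hspa4l, and 0 genes of the other 3 lists. The lower counts without the 3 shallow libraries were 4 of 20, 2 of 30, 4 of 21 and 1 of 29. Krt18 (-1.78 ± 0.26), Krt19 (-2.08 ± 0.29), Actg1 (-1.73 ± 0.33) and Hspb1 (-2.16 ± 0.37) rose in both genotypes and less in Adam17ex. The interaction was called in all 28 alternatives for Hspa4l and each of the other 12 genes named here and in the preceding paragraph, but ranged from 1.73 to 3.38 for Hspa4l, from 4.29 to 5.54 for Fgf21, from 3.17 to 4.25 for Pkdcc and from -5.00 to -3.85 for Hmga1. These list members were chosen with such results known, and their counts describe these 16 libraries. List counts without the 3 shallow libraries come from a fit of 9915 genes with 1 Adam17ex PBS library and fewer interaction calls. The shares of 3.75% and 2.27% over all genes do not apply to them. An interaction also takes in differences between the 2 PBS groups, and the part of these was not tested.

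**Figure D5:**
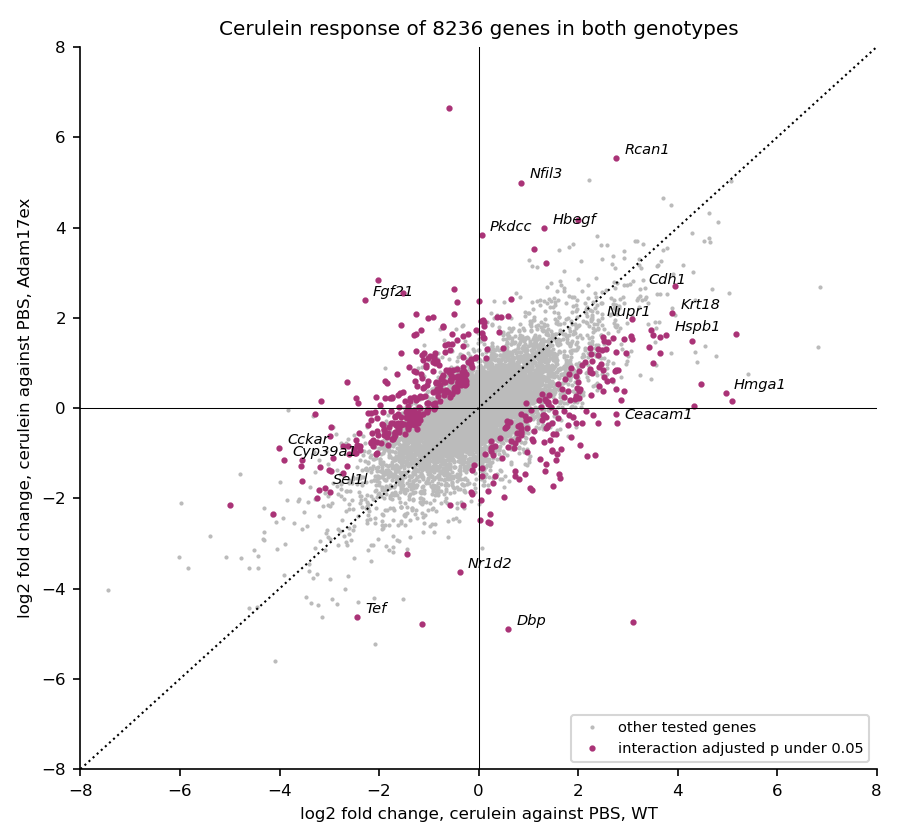
Log2 fold change of each of 8236 genes after cerulein in WT (horizontal) and in Adam17ex (vertical), with genes of an interaction adjusted p under 0.05 in purple, all others in grey and equal response as a dotted line. Rcan1, Hbegf, Pkdcc, Fgf21 and Nfil3 lie above the line, and Dbp, Tef, Hmga1, Ceacam1 and Krt18 below it.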

How the data were processed

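RNA of whole pancreas was counted at the 3' end with unique molecular identifiers (UMIs). The deposited table holds UMI counts per gene for 16 libraries, in whole numbers; per the submitters' processing notes, which name no aligner or counter, the build was GRCm38 (mm10) and R 4.1.2, edgeR 3.36.0 and limma 3.50.0 were used. Libraries were grouped by the genotype and treatment in the labels. Nothing in the labels says how RNA from animals was pooled or split, so p-values measure the spread between these libraries.

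Counts were tested in R 4.3.3 with edgeR 4.0.16 (quasi-likelihood test, TMM factors, filterByExpr with a minimum count of 10, genotype and treatment groups plus sex over all 16 libraries, 11 residual degrees of freedom, Benjamini-Hochberg adjusted p under 0.05). Adjusted p-values of genes are from this model, or from the same model refitted where libraries are said to be left out, and SE is that of the log2 fold change. Library shares were compared by exact two-sided permutation tests, adjusted over 4 shares. Scripts were tested on simulated data. Alternatives were RLE and upper-quartile factors, TMM without enzyme genes, removal of the ribosomal RNA gene, DESeq2 1.42.0, limma-voom 3.58.1, no filter, a minimum count of 30, no sex term, a replicate block, the 8 libraries alone with and without the label code, thinning to 455547 UMIs, and leaving out libraries.

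Genes were named by rule: the 15 highest and 15 lowest called log2 fold changes, the 10 largest CPM differences, up to 5 members per list by p, the 10 smallest interaction p-values and the genes of the ADAM17 and cytokine question. Atf3, Lif, Chac1, Fgf21, Atf4, Nr1d1, Cry1, Arntl, Gcg, Ciart, Slc7a11, Hspa5, Vldlr, Creld2 and Pim3 lie outside it and were chosen after their values were seen. Members, lists and tests were chosen with earlier results of these data known. UMIs are independent molecules only as far as identifiers did not collide, and counting intervals (95%) cover counting error only. Promoter sequences are RefSeq's, build GRCm38.p6, matched by symbol. Sexes matched the labels in 16 of 16 libraries.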

Additional observations from a re-analysis of the deposited data

Results flagged for a closer look

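The cerulein response of 45 of the genes named above differed between Adam17ex and WT by the interaction term of the edgeR quasi-likelihood test (adjusted p under 0.05), with 26 values higher and 19 lower in Adam17ex. Values are the Adam17ex effect minus the WT effect on the log2 scale. They take in differences between the PBS groups as well as between the cerulein groups. In WT and Adam17ex, mean CPM of Sdf2l1 was 214 and 98.0 with PBS and 36.4 and 49.2 with cerulein. For Timp3 it was 32.0 and 78.0, then 33.7 and 26.9, and for Eif2ak3 60.5 and 45.5, then 89.8 and 195. The part of each was not tested. Signalling genes with a higher value were Rcan1 (2.79), Cckar (3.12), Hbegf (2.67), Dusp8 (2.92), Zfp36l1 (1.76), Reg3d (1.94) and Pkdcc (3.77), and Timp3 had a lower one (-1.58). In the stress and folding genes the values were 1.89 for Chac1, 4.67 for Fgf21, 1.43 for Eif2ak3, 0.97 for Atf4, 1.47 for Sdf2l1, 1.46 for Dnajb11, 1.86 for Dnajb9, 1.31 for Sel1l, 1.35 for Derl3, 1.88 for Creld2, 2.17 for Hspa4l and -2.16 for Hspb1. Transport and metabolic genes gave 1.05 for Lman1, 1.26 for Gatm, 1.40 for Slc7a8, 2.76 for Cyp39a1, -1.95 for Slc30a2, -1.05 for Ctsl and -1.25 for Sqstm1. Keratin, adhesion and cytoskeleton genes gave -1.23 for Krt8, -1.78 for Krt18, -2.08 for Krt19, -0.92 for Epcam, -3.11 for Ceacam1, -1.73 for Actg1, -1.10 for Actn1, -1.79 for Fchsd2 and 1.18 for Tuba4a, and Hmga1 gave -4.64. Clock genes gave -5.48 for Dbp, -2.19 for Tef, -3.26 for Nr1d2, -3.66 for Per3, 2.07 for Cry1, 3.15 for Arntl and 4.15 for Nfil3. The fitted value for Nr1d1, -7.85, is no estimate of size because its WT PBS libraries held 0 UMIs. Of the 45 differences, 19 were called under every alternative that tested them, 22 without the 3 shallow PBS libraries, and 0 changed sign. The genes not called without those libraries included Sdf2l1, Dnajb11, Sel1l, Derl3, Eif2ak3, Atf4, Chac1, Lman1, Gatm and Slc7a8 (adjusted p from 0.0557 for Lman1 to 0.326 for Slc7a8).

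A single library stood far from the other 3 of its group in 22 of 308 gene and group combinations (7.14%), where the gap to the nearest library, divided by the range, passed Dixon's critical value of 0.829. Chance gives about 1 in 20. PBS replicate 2 was the highest in Hbegf (0.878), Btg2 (0.875), Fgf21 (0.953), Neat1 (0.845) and Tlcd2 (1, from 1 UMI). PBS replicate 1 was the lowest in Btc (0.837) and the highest in Per3 (0.959), PBS replicate 3 the highest in Atf3 (0.893) and Tac1 (1, from 1 UMI), and PBS replicate 4 the highest in Eif2ak3 (0.829) and the lowest in Hspa4l (0.967). The 4 PBS libraries held 3, 4, 4 and 8 UMIs of Hbegf, 0, 1, 1 and 2 of Btc and 4, 4, 5 and 3 of Hspa4l. Those flags thus rest on a few molecules as well. Among the cerulein libraries, replicate 1 was the lowest in Rcan2 (0.862) and Chac1 (0.866), and replicate 2 the highest in Clu (0.84). Replicate 3 was the lowest in Cldn10 (0.851), Neat1 (0.957) and Cyp39a1 (0.878) and the highest in Ighm (0.872). Replicate 4 was the lowest in Sel1l (0.86) and Odc1 (0.919) and the highest in Derl3 (0.832) and Kel (0.863).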

How the results depend on the processing

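Genes called higher numbered 706 with the stricter filter, 697 with the label code as a term in the 8 libraries alone and 666 without the 3 shallow PBS libraries, against 1162, and 1048 to 1224 when 1 library was left out. Genes called lower numbered 844, 761 and 694 under the same settings and 739 at equal depth, against 1331, and 933 to 1223 with 1 library left out. Interaction calls, 496, fell to 285 at equal depth and to 152 without the 3 shallow libraries, and ranged from 239 to 624 with 1 library left out. Without the 3 shallow libraries Gcg (0.72), Chga (0.0192) and Vldlr (0.27) changed sign, and with the label code Hspa5 did (-0.13). The cause was not tested. Of 146 named genes called, 114 stayed called in every alternative that tested them. No filter shifted the median of all genes by 0.16 and the stricter filter by -0.11 on the log2 scale. Replicate numbers were not taken to pair the samples, because the labels do not say that they do and 1 of 4 same-numbered correlations of deviations (0.287, -0.0276, 0.206 and 0.375) was under 0.1. As a hint from the data, 3 of 4 samples correlated best with their own number. With the replicate block 1143 genes were called higher, 1297 lower and 488 for the interaction. At 455547 UMIs in the shallowest library, genes of a few CPM could not be followed.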
